A study of Mus musculus with 6 samples.

Results

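Between the pluripotent state in 2iL medium and the state reached 96 h after its withdrawal, a small class of open chromatin regions was listed at both ends of the time course of E14 mouse embryonic stem cells and absent in between. The class was chosen on presence in the deposited peak lists. Intervals of the 2iL, 48 h and 96 h lists were merged wherever they shared 1 bp or more, and a merged region was kept when it held a 2iL and a 96 h interval, held no 48 h interval, and had its midpoint over 1 kb and up to 100 kb from the nearest end of a protein-coding gene. This gave 2003 distal regions. Of all 131410 merged regions, 2562 (1.95%) had the same pattern of lists, of which 114 lay within 1 kb of a gene end and 445 lay over 100 kb away. The 2003 were 2.08% of the 96217 distal regions and 6.21% of the 32259 distal regions that the 2iL and 96 h lists share. Because the rule used these lists, the counts describe the class and test nothing.

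The cells are a blastocyst-derived line grown on gelatin. In the 2iL group they were kept in N2B27 medium with CHIR99021 (an inhibitor of the kinase GSK3), PD0325901 (an inhibitor of the kinase MEK) and the cytokine LIF, and the labels call this group untreated. In the other groups 2iL was taken away the day after plating, and cells stayed in N2B27 alone for 48 h or 96 h. There were 6 samples, 2 for each of the 3 groups (A and B), and nuclei of live cells were profiled by ATAC-seq, in which a transposase cuts accessible DNA and leaves sequencing adapters behind. A and B share 1 peak list per group, so no spread between samples can be given and no test between conditions was possible. Nothing in the labels says whether A and B were separate cultures. All 3 groups are 1 cell line, and these are bulk samples, in which fewer cells with an open site and less opening per cell cannot be told apart.

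In 2iL, mouse embryonic stem cells are held in naive pluripotency, a state like that of the early epiblast. GSK3 inhibition mimics WNT signalling by sparing beta-catenin and relieving the repressor Tcf7l1, MEK inhibition blocks the FGF/ERK signal that pushes cells to differentiate, and LIF acts through STAT3. Once these are removed, cells leave the naive state, pass through a formative state and, in N2B27, move towards neural fates. Distal open regions are often enhancers, DNA elements that bind transcription factors and act on genes from a distance, and they change between cell states more than promoters do. The stem cell genes Pou5f1, Nanog, Sox2, Zfp42 and Klf4 had an interval within 1 kb of a gene end in all 3 lists, which fits the cell type but does not tell the groups apart. By this lookup Esrrb, a factor of the naive state, goes against the order of the groups. It had such an interval at 48 h and at 96 h, but not in the 2iL list. Only the outer ends of each gene were looked up, so any start inside Esrrb was not read.

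Only where a member overlapped an annotated start could its sequence be read, from the RefSeq windows of GRCm38.p6 (the assembly of mm10) that run from 250 bases before to 50 after each transcript start. The members with such a window had midpoints 1.42 to 99.5 kb from the nearest end of a protein-coding gene. Their windows are mostly starts of long non-coding RNAs or of shorter transcripts inside a gene. In all, 50 members overlapped 60 such windows of 50 genes, 36 of them lncRNA genes and 14 protein coding. Shown here are the 7 that hold a 2iL or 96 h summit and belong to the members with the highest smaller fold of the 2 lists, since they are start sites whose interval left the list at 48 h and was back at 96 h. Each is written from 5′ to 3′ on the strand of its transcript, with the motifs found in it, on either strand, in capitals.
Gm52731: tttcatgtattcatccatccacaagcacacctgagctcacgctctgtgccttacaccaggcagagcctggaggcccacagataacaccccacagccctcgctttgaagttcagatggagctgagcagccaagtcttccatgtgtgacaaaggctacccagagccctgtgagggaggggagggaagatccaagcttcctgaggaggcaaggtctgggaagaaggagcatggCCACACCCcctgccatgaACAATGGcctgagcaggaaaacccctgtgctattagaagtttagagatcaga
Chn1: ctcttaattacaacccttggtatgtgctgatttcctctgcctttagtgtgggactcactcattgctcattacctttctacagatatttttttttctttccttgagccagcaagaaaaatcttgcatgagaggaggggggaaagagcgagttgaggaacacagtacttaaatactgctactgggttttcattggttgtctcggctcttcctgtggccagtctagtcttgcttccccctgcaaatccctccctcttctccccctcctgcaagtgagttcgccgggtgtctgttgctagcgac
Slc20a1: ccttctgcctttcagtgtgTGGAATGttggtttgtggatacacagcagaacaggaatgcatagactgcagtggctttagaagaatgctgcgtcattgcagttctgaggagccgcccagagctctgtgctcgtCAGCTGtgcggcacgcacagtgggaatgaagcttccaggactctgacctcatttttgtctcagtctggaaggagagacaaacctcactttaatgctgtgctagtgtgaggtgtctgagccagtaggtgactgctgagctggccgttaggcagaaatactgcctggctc
Gm33856: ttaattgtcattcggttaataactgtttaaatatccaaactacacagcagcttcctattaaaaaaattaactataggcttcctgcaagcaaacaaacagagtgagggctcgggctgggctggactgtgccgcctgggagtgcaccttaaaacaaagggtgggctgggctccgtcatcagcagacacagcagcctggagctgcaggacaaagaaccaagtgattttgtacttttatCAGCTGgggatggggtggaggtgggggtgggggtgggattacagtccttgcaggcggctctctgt
Gm32796: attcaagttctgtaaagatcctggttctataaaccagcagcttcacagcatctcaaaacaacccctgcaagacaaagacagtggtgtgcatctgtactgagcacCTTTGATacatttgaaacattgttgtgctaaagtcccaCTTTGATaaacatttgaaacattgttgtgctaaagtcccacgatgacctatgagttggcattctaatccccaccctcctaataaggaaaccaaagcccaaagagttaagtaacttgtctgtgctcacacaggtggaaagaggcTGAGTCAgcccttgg
Gm41565: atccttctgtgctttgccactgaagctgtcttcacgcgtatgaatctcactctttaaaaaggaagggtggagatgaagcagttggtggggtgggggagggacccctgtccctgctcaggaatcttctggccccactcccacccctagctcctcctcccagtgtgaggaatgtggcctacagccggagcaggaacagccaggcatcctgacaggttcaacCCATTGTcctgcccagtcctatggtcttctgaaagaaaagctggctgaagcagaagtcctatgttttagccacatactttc
Gm35076: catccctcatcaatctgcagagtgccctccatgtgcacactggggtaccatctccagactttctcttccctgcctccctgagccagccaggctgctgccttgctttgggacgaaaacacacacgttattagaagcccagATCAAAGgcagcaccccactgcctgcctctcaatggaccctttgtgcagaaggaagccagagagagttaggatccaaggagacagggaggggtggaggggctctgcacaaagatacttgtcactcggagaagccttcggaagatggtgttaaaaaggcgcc

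The window of Gm52731, a lncRNA start 11.2 kb from Galnt12, lies at chr4:47111910-47112209 on the minus strand and holds a KLF motif and a SOX motif. Its member had a fold enrichment of 18.8 in the 2iL list and 13.6 in the 96 h list. The Chn1 window (chr2:73660374-73660673, minus strand) is a start inside the gene of alpha-chimaerin, a Rac GTPase-activating protein of axon guidance, and none of the motifs searched was in it. The Slc20a1 window (chr2:129206846-129207145, plus strand), at the gene of a sodium-phosphate cotransporter, holds a TEAD motif and an E-box. Gm33856 (chr2:33789321-33789620, plus strand), 59.6 kb from Mvb12b, holds an E-box. Gm32796 (chr16:29972610-29972909, plus strand), 92.4 kb from the Notch target Hes1, holds an AP-1 motif and TCF/LEF motifs, with the TCF/LEF letters inside a stretch that repeats. Gm41565 (chr17:31865691-31865990, minus strand), 9.99 kb from the kinase gene Sik1, holds a SOX motif, and Gm35076 (chr8:88512308-88512607, plus strand), 8.60 kb from the WNT antagonist Nkd1, holds a TCF/LEF motif. GC content of these 7 windows was 43.0% to 55.0%, with 1 to 6 CpG dinucleotides each.

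A distal region listed in 2iL and at 96 h was seldom missing in between. The share missing at 48 h was 6.21% of 32259 regions (exact binomial 95% interval 5.95 to 6.48, which covers counting error only and treats neighbouring regions as independent). By comparison, 26.4% (26.0 to 26.8) of the 41105 distal regions in the 2iL and 48 h lists were missing at 96 h, and 25.2% (24.8 to 25.6) of the 40450 in the 48 h and 96 h lists were missing in 2iL. Seen from the start of the time course, 24069 distal regions of the 2iL list were missing at 48 h, and 8.32% (7.98 to 8.68) of these were listed at 96 h. The other 22066 were found in 2iL only. The same class made up 0.855% (0.706 to 1.03) of regions in the 2iL and 96 h lists that lay within 1 kb of a gene end, and 10.7% (9.80 to 11.7) of those over 100 kb away.

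Regions near the bottom of their lists were missing at 48 h most often. Each region was given the percentile of its −log10 p (the peak caller's evidence for the summit) within its own list, and regions were grouped by the smaller of the 2 percentiles. In the lowest group, up to percentile 10, 757 of 3154 regions (24.0%) were missing at 48 h. The share was 15.1%, 9.11%, 4.76% and 2.64% in the next groups and 1.42% between percentiles 50 and 60. Above percentile 80 it was 1 of 2366 regions and then 0 of 1379, with an exact upper limit of 0.267%. Regions missing at 96 h or in 2iL declined in the same way from a higher start, with 58.2% and 54.7% in the lowest group and 0.162% and 0.647% in the highest. In each of the 10 groups the share missing at 48 h was the lowest of the 3.

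**Figure D1:**
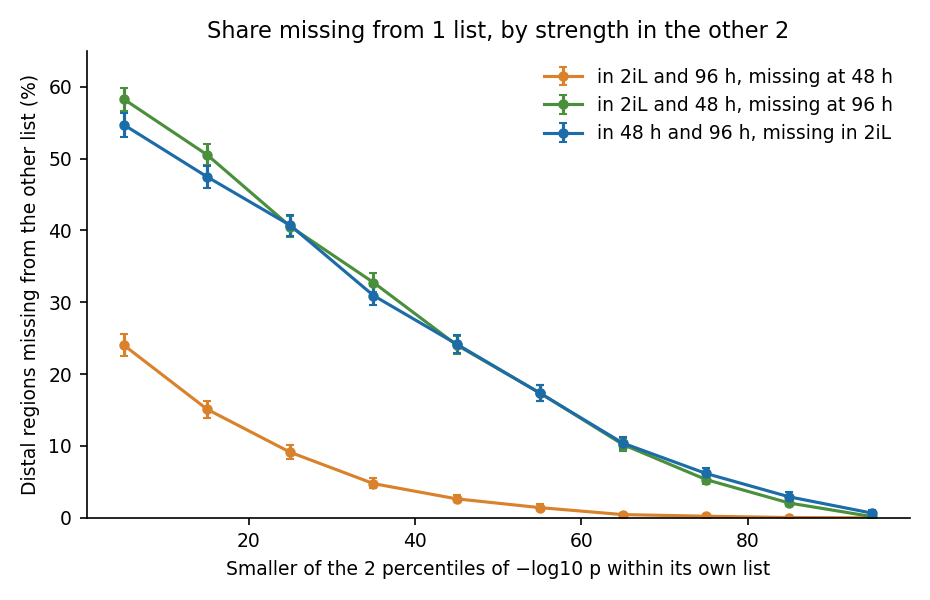
Share of distal regions that are missing from 1 list, in percent, by the smaller of the percentiles of −log10 p within the other 2 lists, in 10 groups. Orange points are regions in the 2iL and 96 h lists missing at 48 h, green points those in 2iL and 48 h missing at 96 h, blue points those in 48 h and 96 h missing in 2iL; bars are exact binomial 95% intervals. The orange points go from 24.0% in the weakest group to 0% in the strongest and lie under the others throughout.

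Most members were weak in at least 1 of their own lists. Of the 2003, 1644 (82.1%) were under percentile 30 in at least 1 list, against 29.4% of the 30256 distal regions in all 3 lists. Both percentiles were over 50 in 76 members (3.79%, against 46.2%), and 1 member was over 75 in both. With only the part of each of the 3 lists above its median −log10 p, 686 regions had the pattern. That cut also drops weaker 48 h intervals, so the 686 can include regions that have one and are not members. With the whole 48 h list kept, the number was 76. The median percentile of members was 28.1 in the 2iL list and 22.1 in the 96 h list, against 60.3 and 58.6 for regions in all 3 lists.

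The same was seen in the authors' other values, of which fold was set side by side across lists only to rank members and to compare their order. Fold enrichment of a summit over its local background had a median of 6.69 for members in the 2iL list (quartiles 5.26 and 8.57), against 9.41 for regions in all 3 lists and 6.51 for regions found in 2iL only. In the 96 h list the medians were 6.25 for members (quartiles 4.85 and 8.14), 10.01 for regions in all 3 lists and 5.998 for regions found at 96 h only. By this measure members lay close to the regions that were found in a single list. A pileup solved from fold and p had a median of 139 tags for members against 209 tags for regions in all 3 lists in 2iL, and 116 against 198 at 96 h. It was solved only below a −log10 p of 290, which leaves out the strongest regions. In 2iL the medians cover 1921 members and 23120 of the 30256 regions in all 3 lists, and at 96 h 1971 and 21650. Member intervals were also narrower, with a median width of 528 bp against 679 bp in 2iL and 473 bp against 678 bp at 96 h. The highest score of 1000 was held by 58.9% of members in the 2iL list and 47.8% in the 96 h list, against 86.6% and 86.3% of regions in all 3 lists.

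The 2iL and 96 h summits of most members lay close together. With no 48 h interval to join them, a member exists only where its 2iL and 96 h intervals overlap, so closeness is in part built in. The largest distance between summits was 1653 bp. The 2iL and 96 h summits of a member were a median of 15 bp apart, and 1516 of 2003 (75.7%, 73.7 to 77.6) were within 50 bp, against 11 bp and 84.9% for regions in all 3 lists. The order of strength was less alike. Across members, fold in the 2iL list and in the 96 h list had a Spearman correlation of 0.33 (Pearson r 0.27, n = 2003), against 0.60 and 0.62 across the 30256 regions in all 3 lists. Points of such a correlation share 2 lists and are not replicates, and the members span a narrower range of fold.

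**Figure D2:**
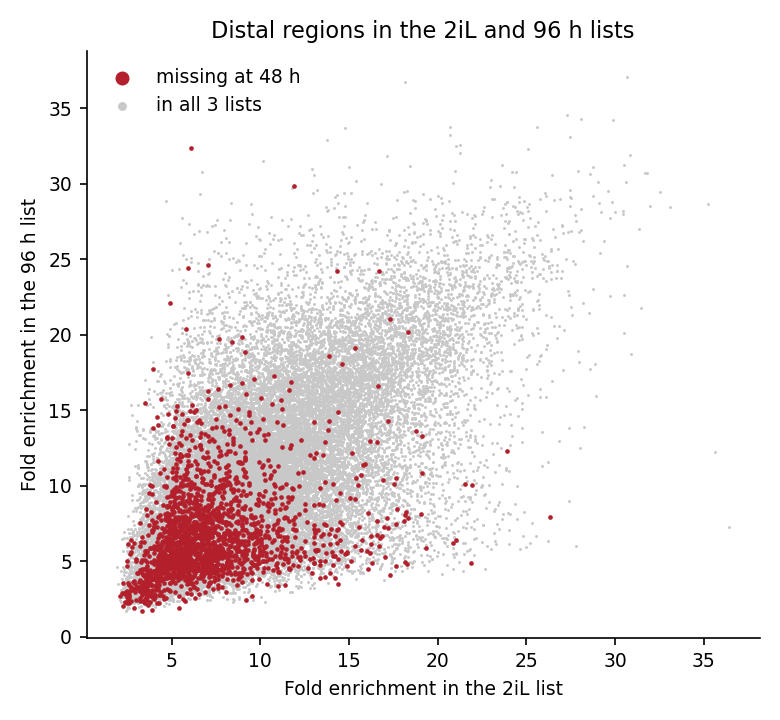
Fold enrichment of each distal region in the 2iL list (x axis) and in the 96 h list (y axis), 1 point per region. The 2003 regions missing at 48 h (red) lie mostly at the lower left, with medians of 6.69 and 6.25, and the 30256 in all 3 lists (grey) reach higher in both lists, with medians of 9.41 and 10.01.

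The exceptions were a few strong regions, ranked by the smaller of their 2 folds. First was a region inside Lyn, the gene of a Src-family tyrosine kinase (chr4:3775774-3776663, 15.4 kb from a gene end), with fold 18.3 in 2iL and 20.2 at 96 h. It was the 1 member over percentile 75 in both lists, at 87.7 and 80.2, and the nearest 48 h interval was 6.86 kb away. A region 84.5 kb from Zfhx3, which encodes a zinc-finger homeobox factor (chr8:108194430-108195161), had fold 17.3 and 21.1, with no 48 h interval within 93.0 kb. Inside Akap13, a scaffold of protein kinase A, a 463 bp region (chr7:75521193-75521655) had fold 16.7 and 24.2. In these 3 the summits of the 2 lists were 3 to 13 bp apart.

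The next members were nearly as strong. A region 13.1 kb from Iqcf6 (chr9:106613181-106613900) had fold 16.6 in both lists. Regions inside Siah3, of the Siah ubiquitin ligase family (chr14:75505161-75505946), and 13.5 kb from Got2, the mitochondrial aspartate aminotransferase (chr8:95901205-95902600), had fold 15.3 and 14.6 in 2iL and 19.1 and 18.1 at 96 h. Hs3st5, a heparan sulfate sulfotransferase gene, held a region (chr10:36803313-36804290) with fold 14.3 and 24.3. A region 38.1 kb from Ifnar2, a chain of the type I interferon receptor (chr16:91334304-91335083), had fold 17.2 and 14.3, but a 48 h interval began only 0.909 kb away. The last of these, inside the actin-binding protein gene Palld (chr8:61573306-61574151), had fold 13.9 in 2iL and 18.6 at 96 h. Among the 9 described here, summits were 2 to 35 bp apart and 5 of the regions lay inside the named gene.

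A 48 h interval was seldom within 500 bp of a member, though often within 5000 bp. The gap from a member to the nearest 48 h interval had a median of 5.29 kb. Members with a 48 h interval within 100 bp numbered 33, and those with one within 500 bp numbered 158 (7.89%, 6.75 to 9.16). Within 1000 bp the number was 318 (15.9%), and within 5000 bp it was 968 (48.3%). For regions found in 2iL only, the share with one within 500 bp was 6.15% (5.84 to 6.47) and that within 5000 bp was 48.3%. At the edge of the rule, the member with the smallest gap, near Magea10 on chromosome X, was 20 bp from a 48 h interval. Just outside, a region near Tcf20 was in all 3 lists with folds of 4.11 in 2iL, 9.34 at 48 h and 3.02 at 96 h. Of its 1529 bp of 48 h intervals, 241 bp (15.8%) also lay in a 2iL or 96 h interval, the lowest such share among distal regions in all 3 lists. By distance, the nearest member was 1003.5 bp from Rnase11 and a region of the same pattern at exactly 1000 bp from Rpl5 stayed out, while the farthest was 99517 bp from Rpe65 and one at 100046 bp from Ppp3ca stayed out.

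Members lay farther from gene ends than the regions that stayed listed, though not outside genes more often. Their median distance to the nearest protein-coding gene end was 19.1 kb, against 12.8 kb for the regions that all 3 lists share, 17.2 kb for regions in 2iL only and 20.5 kb for those at 96 h only. The share of 2iL and 96 h regions missing at 48 h was 4.46% at 1 to 5 kb, 5.60% at 5 to 20 kb, 7.36% at 20 to 50 kb and 9.02% at 50 to 100 kb. Among regions with a smaller percentile of at most 50, it was 8.63%, 9.65%, 11.7% and 14.0%, so the order with distance was also there among weak regions. A protein-coding gene body held 1198 members (59.8%, 57.6 to 62.0), against 55.9% of regions in all 3 lists and 59.3% of regions in 2iL only. The gene table used has no exons, so exonic and intronic members could not be separated.

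Members were spread over the genome. On the autosomes the share of 2iL and 96 h regions missing at 48 h ran from 4.36% (3.35 to 5.57) on chromosome 15 to 7.75% (6.52 to 9.13) on chromosome 6, and on X it was 8.91% (6.601 to 11.7, 46 of 516). The nearest other merged region had the same pattern for 48 members (2.40%, 1.77 to 3.16), near the 1.95% of all merged regions that have it, and lacked a 48 h interval for 739 (36.9%, 34.8 to 39.1). The share lacking a 48 h interval was 30.5% for regions in all 3 lists and 39.4% for regions in 2iL only.

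Few members were annotated starts. A RefSeq promoter window was overlapped by 50 members (2.50%, 1.86 to 3.28), against 8.19% of regions in all 3 lists, 1.17% in 2iL only and 1.38% at 96 h only. With 1 window per region, median GC content was 51.8% in 50 member windows, 58.3% in 2471 windows of regions in all 3 lists and 52.7% in all 32851 windows of the table. The median number of CpG dinucleotides was 5, 14 and 7 in these sets. Member windows thus had fewer CpG than the others, and the highest CpG counts were in the windows of Ddr1, Dazap1 and Lzts2, with 39, 45 and 39 CpG, whose members had smaller folds of 1.71, 2.97 and 2.44.

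Motifs were searched in these windows on both strands, overlapping matches included, and where a region overlapped several windows the first in the RefSeq table was counted. The E-box CAGCTG was in 16 of 50 member windows (32.0%, 19.5 to 46.7), against 17.9% of windows of regions in all 3 lists and 16.3% of all windows. AP-1 (TGANTCA), the site of Fos and Jun dimers, was in 9 (18%, 8.58 to 31.4), against 6.23% and 7.81%. The SOX motif ACAATGG was in 4 member windows (8%), against 2.63% and 3.66%, and the TEAD motif CATTCCA in 3 (6%), against 3.84% and 4.29%. TCF/LEF (CTTTGAT) and KLF (CCACACCC) were in 2 windows each (4%), against 3.20% and 3.40% in the windows of regions in all 3 lists and 3.73% and 3.56% in all windows. The NFY motif GATTGGC was in 0 of the 50 windows counted (exact upper limit 7.11%), against 8.54% and 6.83%, but a second window of the member near Tenm3 (that of Gm51559), which was not counted, holds one. With 50 windows these are descriptions, and a match is not a bound site. Only 31 of the 50 members had a 2iL or 96 h summit in a window, so a motif counted here can lie away from the summit.

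The ends of the genes nearest to members mostly stayed listed at 48 h. Each member was assigned to a protein-coding gene by the nearest end, without evidence that it acts on that gene, which gave 1728 genes. Of these, 84.5% had an interval within 1 kb of a gene end in the 2iL list, 85.3% at 48 h and 83.9% at 96 h. Among the 1406 with one in both 2iL and 96 h, 15 (1.07%, 0.598 to 1.75) lacked it at 48 h. The share was 0.228% (0.135 to 0.361) of 7880 genes that had a distal region in all 3 lists and no member, and 0.409% of 14176 over all genes. Which genes have a member was set by the same lists, so this difference may be in part built in.

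Most genes had a single member: 1499 had 1, 194 had 2, 26 had 3, 7 had 4 and 2 had 5. Those with 5 were Tcf7l1 and Frmd4b. Tcf7l1 encodes the TCF factor that represses naive pluripotency genes unless beta-catenin relieves it, and its 5 members all lay inside the gene, on chromosome 6 between 72662875 and 72731099. Their folds in the 2iL list were 5.40, 6.37, 5.01, 7.71 and 4.17 in order of position, and in the 96 h list 6.96, 15.0, 5.65, 8.67 and 14.6. The pair with the highest fold at 96 h lay at percentiles 78.2 and 78.8 of that list, while none of the 5 was above percentile 42.6 in 2iL. Over all 38 distal regions at Tcf7l1, 31 were listed in 2iL, 19 at 48 h and 18 at 96 h. Regions found in 2iL only numbered 12 of the 38, those at 48 h only 4 and those at 96 h only 2. Frmd4b, which encodes a FERM-domain scaffold, also held its 5 members within the gene, with folds of 3.996 to 11.5 in 2iL and 4.53 to 13.4 at 96 h. Of its 25 distal regions, 21 were listed in 2iL, 8 at 48 h and 16 at 96 h, while 0 were found at 48 h only.

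The genes with 4 members each were Bod1, Daam1, Itpkb, Lyrm9, Nrp2, Tead1 and Tns3. Daam1, a formin that links WNT signalling to actin, had the member with the highest fold of these in 2iL, 21.9 (chr12:71839673-71840999). The summit of that member's 96 h interval, of fold 10.1, was 763 bp away. At Nrp2, a co-receptor for semaphorins and VEGF, 22 of 24 distal regions were listed in 2iL, 11 at 48 h and 15 at 96 h. Its member 24.4 kb outside the gene (chr1:62678376-62679450) had fold 13.2 and 12.1 and lay at percentile 96.1 of the 2iL list. Tead1, the DNA-binding partner of the Hippo effector Yap1, had members with folds of 3.67 to 15.1 in 2iL and 3.22 to 5.203 at 96 h, and none was above percentile 36.7 of the later list. Tns3 (tensin 3, at focal adhesions) had 4 members of fold 3.54 to 13.8 in 2iL and 3.82 to 13.7 at 96 h, one of which lay 0.180 kb from a 48 h interval. Bod1, needed for chromosome attachment in mitosis, had all 4 members outside the gene, and its distal regions numbered 15 in 2iL, 6 at 48 h and 9 at 96 h. Itpkb, an inositol trisphosphate kinase gene, had 15, 8 and 11 distal regions in the 2iL, 48 h and 96 h lists, and Lyrm9 had 10, 5 and 10. At all 9 genes the 48 h list held fewer distal regions than the 2iL list. At Tcf7l1 and Tns3 it held more than the 96 h list, and at the other 7 it held fewer. These genes were picked for their members, which lack 48 h by rule, so low counts at 48 h are in part built in.

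**Figure D3:**
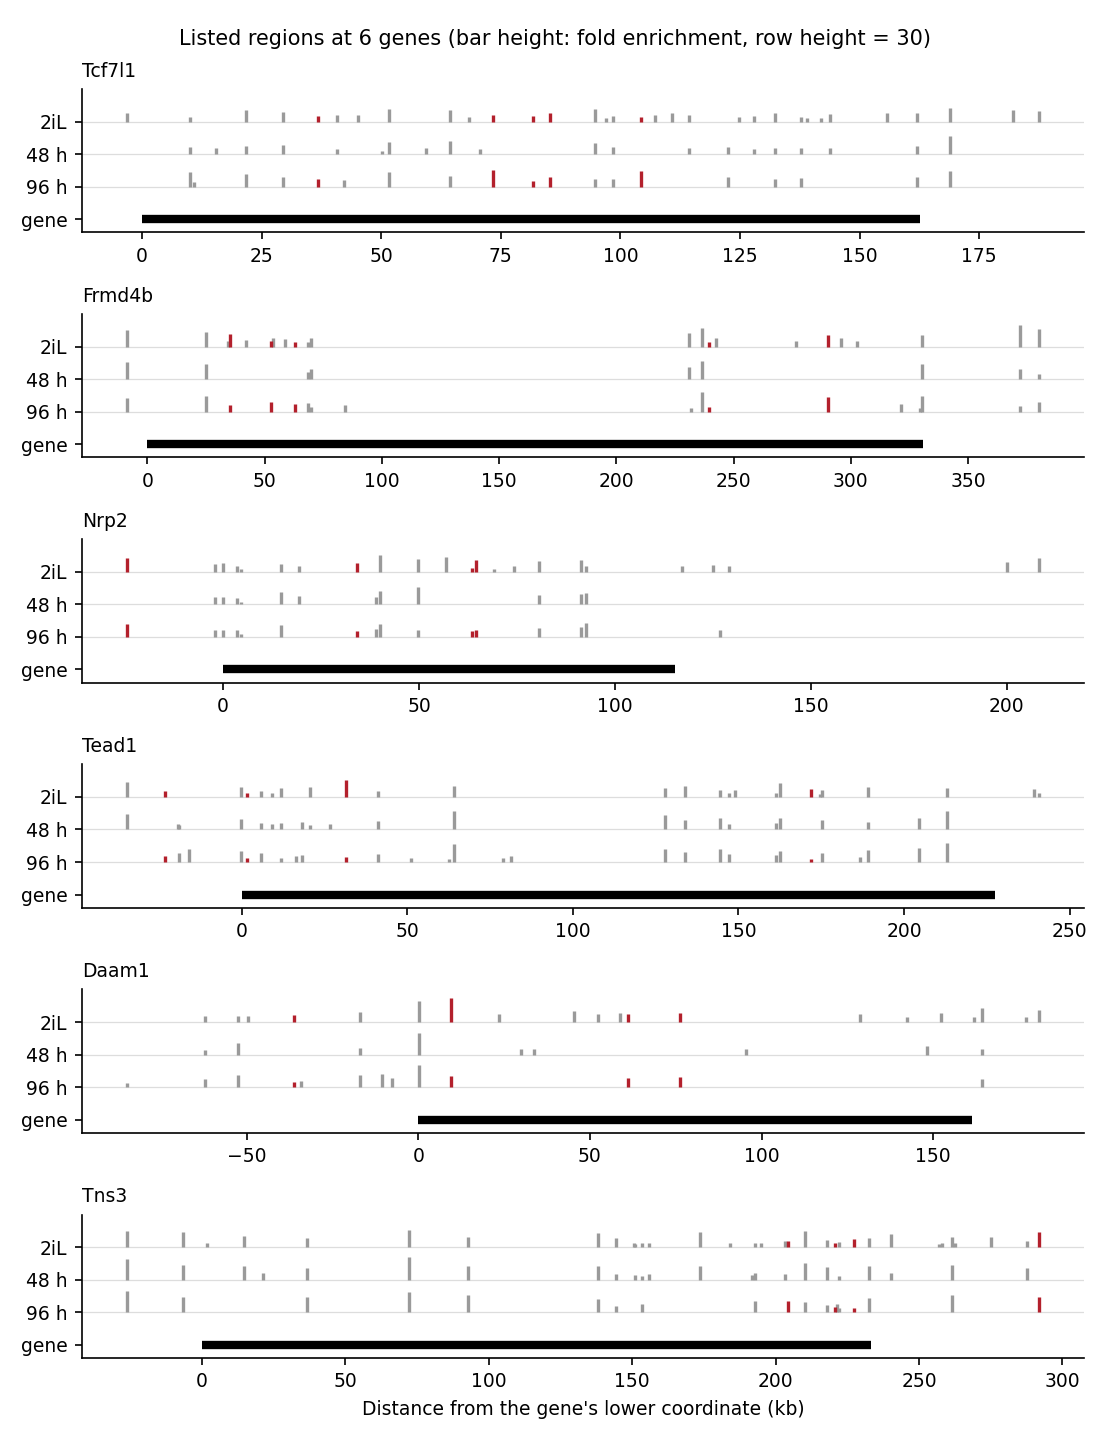
Listed regions at 6 genes with 4 or 5 members, by distance from the gene's lower coordinate in kb, with 1 row per list (2iL, 48 h, 96 h) and the gene body as a black bar. Bar height is the fold enrichment of the region in that list, red bars are regions missing at 48 h only and grey bars all other listed regions. The 5 red bars of Tcf7l1 and of Frmd4b lie within the gene, among grey bars.

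Among 16 lists of genes, members were few and their shares had wide intervals. Of the regions in the 2iL and 96 h lists at the genes of a list, the share missing at 48 h is given beside the 6.21% over all genes. It was 8.43% (3.46 to 16.6, 7 of 83) for naive pluripotency, 5.88% (0.720 to 19.7, 2 of 34) for general pluripotency, 7.06% (2.63 to 14.7, 6 of 85) for formative and primed pluripotency and 6.32% (2.35 to 13.2, 6 of 95) for neural ectoderm. All these intervals hold the value of all genes. The median smaller fold of members was 5.83, 5.37, 6.15 and 5.06 in these lists, against 5.53 over all members.

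The naive members lay at 5 of 19 genes, of which 18 had a region in the 2iL and 96 h lists. Over all genes, 1728 of 12026 with such a region had a member. Counts by gene depend on how many regions each gene has. Tfcp2l1, a LIF/STAT3 target that can sustain the naive state, had a member 4.87 kb away (chr1:118689694-118690375) with fold 7.01 in 2iL and 10.1 at 96 h and no 48 h interval within 29.7 kb, and another with 5.83 and 6.203. Of its 16 distal regions, 15 were listed in 2iL, 5 at 48 h and 6 at 96 h. Nr5a2, an orphan nuclear receptor that can replace Oct4 in reprogramming, had 1 member with fold 8.09 in 2iL and 6.87 at 96 h, and another with 8.34 and 6.40. Klf5, Tbx3 and Fgf4 had 1 member each, with smaller folds of 5.54, 2.80 and 4.03, and those at Klf5 and Fgf4 had a 48 h interval about 1 kb away (0.95 and 1.004 kb). Sall4, of the general list, had a member with a smaller fold of 4.86.

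Formative members included one inside Dnmt3b, a de novo DNA methyltransferase gene (chr2:153668790-153669239), with fold 11.2 and 9.94, the highest smaller fold of that list. Cdh2, the N-cadherin gene, had members of fold 8.94 and 7.87 and of 4.93 and 8.94. Sox3, Tcf15 and Lef1 had 1 each, and at Lef1 a 48 h interval was 0.168 kb away and the folds were 3.36 and 2.37. In neural ectoderm the members described were at Irx3 (8.95 and 6.27), Zfp521 (8.13 and 5.23), Lhx2 (7.36 and 3.19), Rfx4 (4.89 and 7.04) and Ncam1 (4.54 and 8.74), where the values are fold in 2iL and at 96 h. Regions found at 96 h only numbered 10 at Zfp521, 5 each at Irx3 and Rfx4, and 2 each at Lhx2 and Ncam1. Those found in 2iL only numbered 8 at Zfp521 and 2 at each of the other genes, so Lhx2 and Ncam1 had equal counts.

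Signalling lists gave both high and ordinary shares. In the WNT/beta-catenin list 13 of 109 regions were missing at 48 h, 11.9% (6.51 to 19.5), and 5 of the 13 were those at Tcf7l1. Without Tcf7l1 the share was 8.51% (3.75 to 16.1, 8 of 94). The others lay at the membrane ubiquitin ligase Znrf3, which removes WNT receptors (folds 6.38 and 5.92 in 2iL, 10.7 and 12.01 at 96 h) and at Nkd1 (10.3 and 7.50 in 2iL, 10.4 and 14.4 at 96 h). The R-spondin receptor gene Lgr4 had folds of 7.76 and 5.32 in 2iL and 5.34 and 11.8 at 96 h, and the secreted antagonist Dkk1 had 9.67 in 2iL and 4.74 at 96 h. With the 1 member at Lef1, 6 of the 20 genes of the list had members, and all 20 had a region in the 2iL and 96 h lists. The like count over all genes was 1728 of 12026. Znrf3, Nkd1 and Dkk1 are known feedback inhibitors of the pathway. How many such inhibitors are among the genes of the list without a member was not counted. In the LIF/STAT3 list the share was 9.09% (2.53 to 21.7, 4 of 44), with members at Tfcp2l1, Bcl3 and the receptor gene Lifr. In the FGF/ERK list it was 6.15% (1.70 to 15.0, 4 of 65), with members at the feedback inhibitors Spry2 (fold 10.7 and 5.14) and Spred2 (6.68 and 4.45) and at the immediate early genes Fos (7.32 and 5.54) and Ier3 (4.60 and 5.33).

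The Hippo/TEAD list had 9 members of 69 regions, 13.0% (6.14 to 23.3), and 9.62% (3.20 to 21.0, 5 of 52) without Tead1. They lay at Tead1, at the Yap1 antagonist Vgll4, at Amotl2 and at Nf2, which encodes the upstream regulator merlin. The Notch list had 7 of 71, 9.86% (4.06 to 19.3), at the receptors Notch1 and Notch2, the coactivator Maml3 and the targets Hes1 and Hey1. A member 62.1 kb from Hes1 (chr16:30129267-30130483) had fold 6.88 in 2iL and 13.4 at 96 h, and its other member is the start of Gm32796 shown above.

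The list of neuronal adhesion and guidance had 13 members of 90 regions at 10 of its 26 genes, 14.4% (7.92 to 23.4), and 12.7% (6.24 to 22.0, 10 of 79) without Slit1. Its interval without Slit1 lay just above the 6.21% of all genes. Distance was not matched, and members of the list lay 2.49 to 95.1 kb from a gene end. Over all genes the share at 50 to 100 kb was 9.02%, which that interval holds. Among regions there with a smaller percentile of at most 50 it was 14.0%. By gene, 24 of the 26 had a region in the 2iL and 96 h lists. Over all genes, 1728 of 12026 with such a region had a member. Slit1, a secreted guidance cue, had 3 members within the gene, with folds of 4.27, 6.79 and 6.68 in 2iL and 3.46, 3.99 and 6.09 at 96 h. Netrin gene Ntn1 had 2, and Cntnap2, Cdh4, Dcc, Efna5, Efnb2, Sema5a, Sema6a and Slit2 had 1 each. The highest smaller fold was 10.1, at Cntnap2 (chr6:47328191-47328741), a neurexin-family adhesion gene, with 14.4 at 96 h. All 13 members were among regions with a smaller percentile of at most 50, where the share was 21.3% (11.9 to 33.7, 13 of 61), against 10.6% (10.1 to 11.0, 1927 of 18191) over all genes. A share of this size was not particular to this list. Among such regions it was higher, from fewer regions, for mesoderm and primitive streak (6 of 24), LIF/STAT3 (4 of 18) and fibroblasts (3 of 14). Hippo/TEAD (8 of 40) and WNT/beta-catenin (13 of 68) came next, and the remaining lists were lower.

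Mesoderm and primitive streak genes had 6 of 39, 15.4% (5.86 to 30.5), at Eomes, Evx1, Gsc, Snai1 and, with 2, the VEGF receptor gene Kdr, without which the share was 11.1% (3.11 to 26.1). Definitive endoderm had 0 of 24, with an exact upper limit of 14.2%. Lists of other cell types that the dish could hold gave 7.50% (1.57 to 20.4, 3 of 40) for extraembryonic endoderm, 4.35% (0.531 to 14.8, 2 of 46) for trophoblast and 12.5% (2.66 to 32.4, 3 of 24) for fibroblasts. Their part in the results was not tested. Housekeeping genes had 1 of 42 (2.38%, 0.0603 to 12.6), at Ywhaz.

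**Figure D4:**
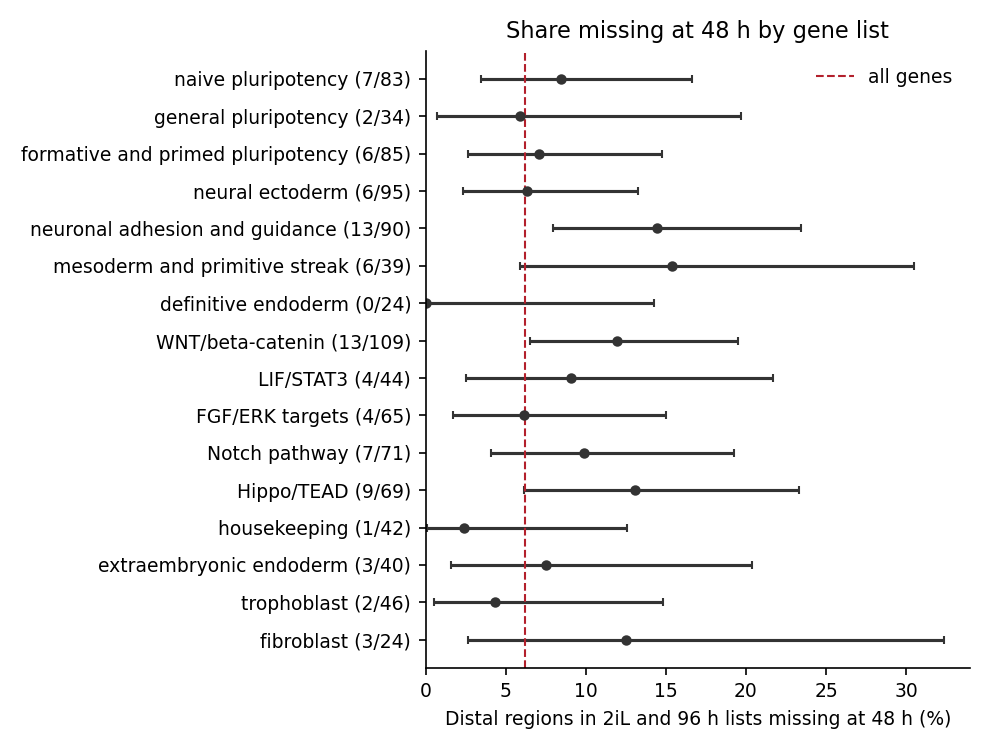
Share of the distal regions in the 2iL and 96 h lists that are missing at 48 h, in percent, for regions at the genes of 16 lists, with members over regions in brackets and exact binomial 95% intervals. The dashed line is the 6.21% over all genes, not matched for strength or distance. The neuronal adhesion and guidance list (14.4%) and the WNT/beta-catenin list (11.9%) have intervals that lie above the line. The WNT interval does so only with Tcf7l1 counted.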

How the data were processed

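ATAC-seq data of 6 samples were analysed as 3 deposited peak lists, 1 per group, which samples A and B of a group share per the labels. Per the submitters' processing notes, bcl2fastq 2.20.0.422, BWA, SAMtools and Picard were used with the build mm10; which peak caller ran, with what thresholds or shift for the transposase, is not given in the sources used here, and such settings decide how many weak peaks a list holds. The deposited score is the authors' whole number per interval, the deposited fold enrichment is the authors' ratio over local background, and the authors' p-values are on the −log10 scale. The deposited −log10 q values were not used. The summit offset in each deposited line is in bp. A peak list gives no depth. The lists held 91228, 88810 and 78055 intervals for 2iL, 48 h and 96 h.

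Intervals were merged at 1 bp of overlap, and each region was given the fold and p of whichever summit had the highest −log10 p. Tags at a summit were solved from fold and p below a −log10 p of 290, and came out whole within 0.02 for 100% of those solved. Gene positions, without strand or exons, and promoter windows came from RefSeq tables of GRCm38.p6. Python 3.11.15, numpy 2.4.6, pandas 2.3.3, scipy 1.17.1 and matplotlib 3.10.9 were used, and counting and solving were tested on simulated data. Shares have exact (Clopper-Pearson) 95% intervals.

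The members, gene lists (255 entries, all matched) and motifs were chosen with earlier results of these data known, so no p-value is given over them. Named were the 10 members with the highest smaller fold, genes with at least 4 members, and every member at genes of pluripotency, its exit, neural ectoderm and WNT, LIF or FGF signalling; genes of other lists, the low-fold CpG-rich promoters and the edge cases were named after their values were seen. A few members that this rule names are not reported here. Sequence around summits was to be printed; promoter windows were used in its place. Alternatives covered list strength and length, overlap, distance and gene type.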

Additional observations from a re-analysis of the deposited data

How the results depend on the processing

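The count of 2003 members was 1845 to 2189 with lists of equal length, with a 48 h interval within 500 bp taken as present, with a 50% overlap of the 2iL and 96 h intervals, with distance from the 2iL summit, with genes of any type and with autosomes only. It was 686 with the stronger part of every list (above the list's median −log10 p). That cut also drops weaker 48 h intervals, so the 686 can include regions outside the class. With the stronger part of the 2iL and 96 h lists against the whole 48 h list, the count was 76. The size of the class thus rests on weak peaks. The share of 6.21% was 4.88% and 0.540% in these settings, 6.51% with lists of equal length, 5.72% with the 500 bp limit and 6.74% with genes of any type. In the 76 strong members the median fold was 11.1 in 2iL and 12.8 at 96 h, 56.6% lay inside a gene and the median distance to a gene end was 28.2 kb. With the mean over all summits of a region the median folds were 5.85 and 5.40. The other shares and medians stayed within their counting intervals under the alternatives run. No paired analysis was possible because samples A and B of a group share 1 list. Leaving out a replicate and a 150 bp motif window around summits were not run. Depth and the spread between samples were unknown, so absence from the 48 h list means no listed interval, not closed chromatin.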
